A study of Mus musculus with 8 samples.

Results

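The genes described here are the mouse genes of bone morphogenetic protein (BMP) and transforming growth factor beta (TGF-beta) signalling, measured in the embryonic hypothalamus with and without a functional Foxd1 gene. They were chosen by a rule on symbols, set with earlier results of these data known. It took the numbered Bmp, Gdf, Smad, Id and Tgfb genes, the Tgfbr, Bmpr and Acvr receptor genes, and the antagonists Nog, Chrd and Fst. The rule found 51 genes among the 22725 symbols that were in both expression tables of the study. They comprised 23 ligands, 12 receptors and co-receptors, 8 Smads, 4 Id genes, 3 antagonists and Bmp1, a procollagen protease that shares the name of the ligands but not their fold.

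Total RNA of dissected hypothalamus was sequenced as 8 libraries, 4 Foxd1-mutant and 4 wild-type. There was 1 mutant and 1 wild-type library at embryonic stage E12.0, 1 of each at E12.5, and 2 of each (R1 and R2) at E17.5. The mutants were Foxd1-null embryos and each library was made from pooled RNA, so embryos were not measured singly. The labels named 2 replicates per genotype at E17.5 without saying that they were separate pools. The E17.5 p-values therefore measured only the spread between these libraries, which may be technical. At E12, with 1 library per genotype and stage, the spread was the disagreement of the genotype difference between E12.0 and E12.5. The comparisons that used all 8 libraries pooled both kinds of spread. The protocol described the controls in words that allowed either genotype and named only E12.5 and E17.5 as dissection ages, so the source names of the libraries were used to set both genotype and stage. The null allele was not described further in the sources used here.

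BMP, GDF and TGF-beta ligands are secreted dimers that bring together type II and type I serine/threonine kinase receptors. The type I receptor then phosphorylates receptor Smads, Smad1, Smad5 and Smad9 for BMPs and Smad2 and Smad3 for TGF-beta and activin, which enter the nucleus with Smad4, while Smad6 and Smad7 dampen the signal. Noggin and chordin hold BMPs away from their receptors, and follistatin does so mainly for activins. In the developing forebrain BMPs pattern the dorsal midline, and BMP4 from the ventral diencephalon is needed for the pituitary primordium of the mouse. The Id genes encode helix-loop-helix proteins without a DNA-binding basic region, and Id1, Id2 and Id3 are long-known transcriptional targets of BMP-activated Smads.

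The Id genes are the usual transcriptional readout of the pathway, and the sequences just before their starts are shown for that reason. RefSeq sequences for GRCm38.p6 held a promoter window for 34 of the 51 genes, and for Id2, Id3 and Id4. Capitals mark GGCGCC and GGAGCC, both known as GC-rich Smad binding elements, and GTCT, the core Smad box, each searched on both strands, so that reverse complements such as GGCTCC and AGAC are in capitals too. No marked stretch overlapped another. The 250 bases before the start of Id2 lie on the minus strand at chr12:25096093-25096342, those of Id3 on the plus strand at chr4:136143572-136143821, and those of Id4 on the plus strand at chr13:48260866-48261115.
Id2: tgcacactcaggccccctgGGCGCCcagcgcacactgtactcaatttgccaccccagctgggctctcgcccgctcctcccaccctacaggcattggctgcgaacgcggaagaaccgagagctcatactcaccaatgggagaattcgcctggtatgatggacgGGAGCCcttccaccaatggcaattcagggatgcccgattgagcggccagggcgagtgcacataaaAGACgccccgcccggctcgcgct
Id3: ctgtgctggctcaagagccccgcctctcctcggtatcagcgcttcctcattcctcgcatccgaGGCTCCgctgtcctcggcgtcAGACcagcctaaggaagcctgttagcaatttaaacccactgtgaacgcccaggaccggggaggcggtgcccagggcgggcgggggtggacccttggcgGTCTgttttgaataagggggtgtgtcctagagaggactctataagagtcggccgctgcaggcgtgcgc
Id4: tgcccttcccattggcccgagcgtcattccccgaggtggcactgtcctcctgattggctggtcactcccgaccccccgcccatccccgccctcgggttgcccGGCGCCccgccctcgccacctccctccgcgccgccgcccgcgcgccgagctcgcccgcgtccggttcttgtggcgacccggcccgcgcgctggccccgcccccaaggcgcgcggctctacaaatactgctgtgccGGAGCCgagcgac
The Id2 window held 1 match to each motif. The Id3 window held 1 GGAGCC, 2 GTCT and no GGCGCC. The Id4 window held 1 GGCGCC, 1 GGAGCC and no GTCT. Among all 32851 windows of this length, 9.59% held GGCGCC, 26.0% held GGAGCC and 82.9% held GTCT, and the 62.8% GC of Id2 and Id3 and the 75.6% GC of Id4 lay above the median of 52.4%. A match describes these letters and is not evidence that a Smad binds there.

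Foxd1 itself was low in every library labelled mutant. It was at 2.77 FPKM in the mutant and 25.0 FPKM in the wild-type library of E12.0, and at 2.50 FPKM in the mutant and 30.3 FPKM in the wild-type library of E12.5. FPKM counts sequenced fragments scaled to transcript length and to the mapped fragments of the library, so it allows levels of different genes to be compared. At E17.5 Foxd1 was at 0.396 and 0.230 FPKM in the mutant libraries, against 3.90 and 1.96 FPKM in the wild-type libraries. All 14 hypothalamic marker genes examined were in the tables, and their summed level was 203 and 358 FPKM in the mutant and 285 and 380 FPKM in the wild-type libraries of E12.0 and E12.5. At E17.5 that sum was 193 and 235 FPKM in mutants, against 248 and 204 FPKM in wild-types. Of these 14 markers 9 were lower in both E17.5 mutants than in both wild-types, as were 22.2% of 13235 tested genes. Higher in both were 0 of the markers, against 20.9% of tested genes. Pomc and Sst, whose genotypes overlapped, moved the sum most. The orexin precursor Hcrt was the one marker of these under 0.1 FPKM, in 3 of the 4 E12 libraries. Small RNA genes took between 9.87% and 24.5% of all FPKM. The authors made the tables of the 2 ages apart from each other, so levels across them are set side by side and not tested. Within the E12 table, 92.1% of genes at a mean of 1 FPKM or more were higher in the E12.5 than in the E12.0 mutant library, and 80.7% in the wild-type pair, so no rise of a single gene between those days was read as its own.

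Of the 51 genes, 39 reached 1 FPKM in at least 1 library and 14 were at 10 FPKM or more in all 8. The 12 that stayed under 1 FPKM were mostly ligands. Bmp10, a cardiac ligand, was listed at 0 in every library. The other BMPs below that level had highest values of 0.130 FPKM for Bmp8a, 0.337 FPKM for Bmp8b and 0.148 FPKM for Bmp15, the last known from the ovary. Among the GDFs the highest values were 0.0234 FPKM for Gdf2, 0.151 FPKM for Gdf3, 0.398 FPKM for Gdf5, 0.0514 FPKM for Gdf6, 0.172 FPKM for Gdf7, 0.581 FPKM for Gdf9 and 0.399 FPKM for Gdf15. The only receptor among the 12 was Acvr1c, which responds to activins and nodal and reached at most 0.323 FPKM. Bmp8a and Bmp8b are near-identical copies, and how fragments were divided between them is uncertain. Of the 23 ligands 12 reached 1 FPKM, as did 11 of 12 receptors and co-receptors, all 8 Smads, all 4 Id genes and all 3 antagonists.

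No gene of the pathway differed between mutant and wild-type past an adjusted p of 0.05 in any of the 4 comparisons. The tests were limma fits of log2(FPKM + 1) across every gene whose mean reached 1 FPKM, with Benjamini-Hochberg adjustment. At E17.5, 0 of 36 tested pathway genes passed, where 1 of 13235 genes did (0.00756%), and at E12, 0 of 32 passed where 4 of 11952 genes did (0.0335%). Over all 3 stages 0 of 37 passed, as did 0 of 12519 genes (0%). For the difference between the E17.5 and E12 effects of genotype 0 of 37 passed, where 4 of 12519 genes did (0.032%). The smallest adjusted p of a pathway gene in these limma fits was 0.976 at E12, 0.689 at E17.5, and 0.749 both over all stages and for the difference. At an unadjusted p under 0.05 stood 3 of 36 pathway genes at E17.5 (5.7% of all genes), 1 of 32 at E12 (1.41% of all genes), 3 of 37 over all stages (5.55% of all genes) and 2 of 37 for the difference (3.95% of all genes). Those 2 were Nog and Fst, and Fst was under the 1 FPKM filter at E17.5.

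The precision of the fits describes these libraries. It rests on the same spreads as the p-values, which at E17.5 may be technical, so it does not bound differences between embryos. At E17.5 the 95% confidence interval of the change stayed within 2-fold in either direction for all 36 tested genes and within 1.5-fold for 30 of them, on the log2(FPKM + 1) scale, which understates changes of low genes. At E12 it stayed within 2-fold for 30 of 32, the exceptions being Tgfb1 and Bmpr2, and within 1.5-fold for 17. With 1 library per genotype, 0 of 30 pathway genes differed past 2-fold at E12.0, where 2.6% of all genes did, and 0 of 31 at E12.5, where 0.716% did. These single-library differences have no replicate check. With a pseudocount of 0.1 in place of 1 FPKM the count at E12.0 was 1, for Tgfb1, at 0.879 FPKM in the mutant and 2.04 FPKM in the wild-type library. The share of all genes past 2-fold at that pseudocount was not computed.

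**Figure D1:**
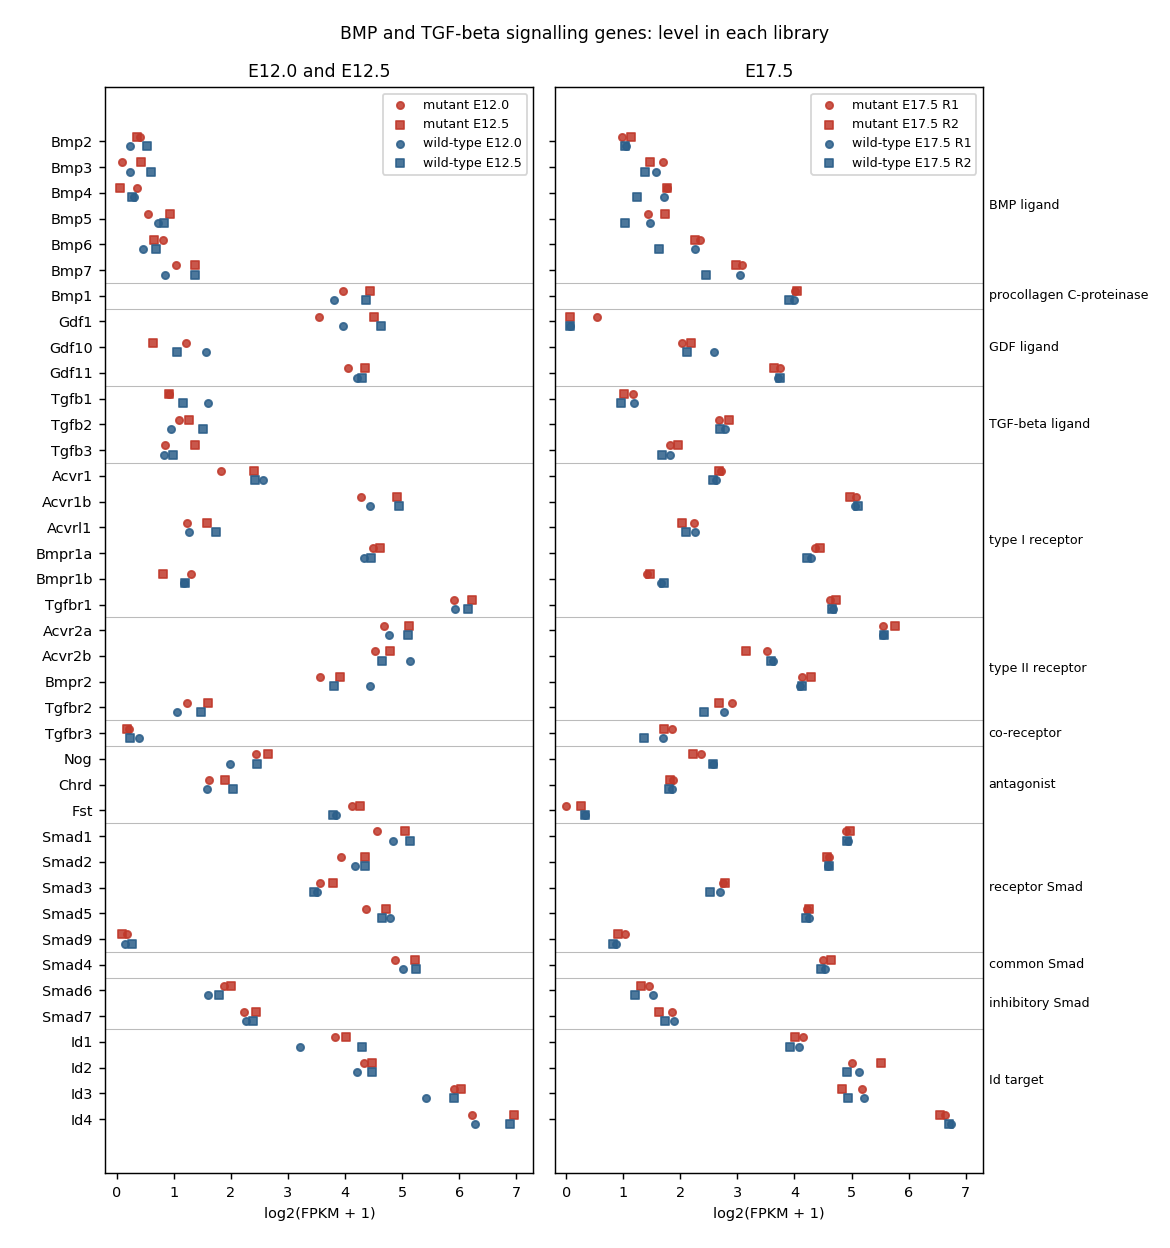
Level of each pathway gene that reached 1 FPKM, as log2(FPKM + 1), in every library at E12 (left) and E17.5 (right), mutant libraries in red and wild-type in blue, genes grouped by role. Mutant and wild-type points lie close together for most genes, Id4 is the highest in each panel, and BMP ligands sit to the left at E12.

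Among the ligands, BMPs were scarce at E12 and present at E17.5. Bmp7, the most abundant BMP ligand at both ages, was at 1.05 FPKM in the mutant and 0.791 FPKM in the wild-type library of E12.0, and at 1.58 FPKM in the mutant and 1.59 FPKM in the wild-type library of E12.5. At E17.5 it was at 7.43 and 6.91 FPKM in mutants, against 7.29 and 4.48 FPKM in wild-types. The wild-type R2 library was the low one, and the other wild-type library lay between the mutants. Bmp6, a close relative of Bmp7, was at 4.10 and 3.78 FPKM in the E17.5 mutants, against 3.77 and 2.08 FPKM in wild-types, with values between 0.379 and 0.745 FPKM over the 4 E12 libraries. Bmp4 was at 2.41 and 2.40 FPKM in the E17.5 mutants, against 2.29 and 1.35 FPKM in wild-types, and did not pass 0.275 FPKM at E12. Bmp5, of the same subfamily as Bmp6 and Bmp7, was at 1.70 and 2.31 FPKM in the E17.5 mutants, against 1.76 and 1.05 FPKM in wild-types, and between 0.459 and 0.912 FPKM at E12.

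These 4 ligands carried the largest positive changes at E17.5 among the tested genes chosen by the rule, and none passed the limma test. The log2 change was 0.37 ± 0.20 (SE) for Bmp6, 0.33 ± 0.18 for Bmp5, 0.29 ± 0.17 for Bmp4 and 0.28 ± 0.19 for Bmp7, each from 2 libraries per genotype with an adjusted p in limma of 0.689 for the first 3 and 0.695 for Bmp7. In all 4 the lowest library was wild-type R2. Without it the log2 changes were 0.05 for Bmp6, 0.11 for Bmp5, 0.05 for Bmp4 and -0.02 for Bmp7. The other measured BMP ligands varied less: Bmp2 lay between 0.968 and 1.19 FPKM and Bmp3, which can oppose other BMPs, between 1.60 and 2.24 FPKM at E17.5, and both were under 1 FPKM in all 4 E12 libraries.

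Wild-type R2 was the lowest of the 4 E17.5 libraries for 19 of the 36 tested pathway genes (52.8%), against 23.7% of all 13235 tested genes. The wild-type R1 library was the lowest for 1 of them, against 22.9% of all tested genes. Over all tested genes, mutant R2 was most often the lowest (36.5%) and most often the highest (36.8%). Among the 36 it was lowest for 9 and highest for 13. For the BMP ligands the lowest library was wild-type R2 in 5 of 6. The summed level of all 10 BMP ligands was 19.3 and 18.8 FPKM in mutants, against 18.5 and 11.9 FPKM in wild-types. The summed level of 13 meninges and mesenchyme markers, all in the tables and none under 0.1 FPKM at E17.5, was also lowest in wild-type R2. It was 265 and 191 FPKM in mutants, against 240 and 148 FPKM in wild-types. Unlike in the ligand sum, mutant R2 was below wild-type R1. Over the E12 libraries that sum was between 11.7 and 15.1 FPKM. A set of 11 endothelial markers, none under 0.1 FPKM, also had its lowest E17.5 sum in wild-type R2, with 148 and 132 FPKM in mutants, against 136 and 122 FPKM in wild-types. Wild-type R2 had the lowest E17.5 sum in 7 of 14 marker lists. Among these the pituitary sum varied more, with 53.3 and 69.5 FPKM in mutants, against 86.9 and 21.4 FPKM in wild-types. The skeletal muscle sum was highest in wild-type R2, with 18.1 and 15.8 FPKM in mutants, against 18.1 and 30.4 FPKM in wild-types. Whether the content of meninges, vessels, pituitary or muscle contributed to the ligand values was not tested. In tissue RNA, fewer cells of a type and less RNA per cell cannot be told apart.

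**Figure D2:**
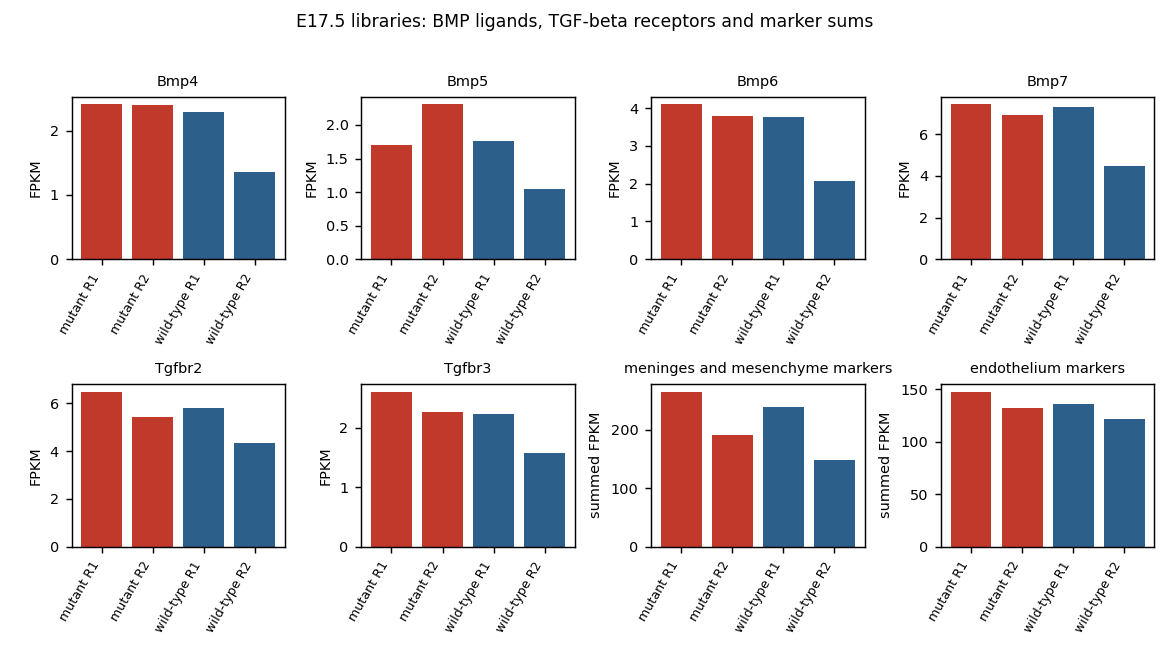
Bars give the FPKM of Bmp4, Bmp5, Bmp6, Bmp7, Tgfbr2 and Tgfbr3 and the summed FPKM of meninges and mesenchyme markers and of endothelium markers in the 2 mutant (red) and 2 wild-type (blue) E17.5 libraries, each bar 1 library. Wild-type R2 is the lowest bar in all 8 panels, and wild-type R1 lies within or close to the range of the mutants.

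The TGF-beta ligands were low at both ages. Tgfb2, the most abundant of them at E17.5, was at 5.43 and 6.25 FPKM in E17.5 mutants, against 5.85 and 5.48 FPKM in wild-types, and the genotypes overlapped. At E12 it lay between 0.932 and 1.85 FPKM, and Tgfb1 was the highest of the 3 in the wild-type E12.0 and Tgfb3 in the mutant E12.5 library. Tgfb1, in the brain mostly a product of vessels and microglia, had the most negative change at E12. It was at 0.879 FPKM in the mutant and 2.04 FPKM in the wild-type library of E12.0, and at 0.881 FPKM in the mutant and 1.24 FPKM in the wild-type library of E12.5. The mutant was the lower of the pair on both days, with a log2 change of -0.47 ± 0.21 (SE) and an adjusted p of 0.976 in limma. At E17.5 the genotypes overlapped, at 1.25 and 1.03 FPKM in mutants, against 1.29 and 0.948 FPKM in wild-types. Tgfb3 lay between 0.784 and 1.57 FPKM over the E12 libraries and between 2.19 and 2.90 FPKM over those of E17.5.

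Of the GDF ligands, 3 were measurable. Gdf11, which limits neuron production in several neural tissues of the mouse, was at 15.5 FPKM in the mutant and 17.46 FPKM in the wild-type library of E12.0, and at 19.4 FPKM in the mutant and 18.7 FPKM in the wild-type library of E12.5. Later, at E17.5, it was at 12.4 and 11.5 FPKM in mutants, against 12.03 and 12.4 FPKM in wild-types. Its genotypes overlapped at both ages, with log2 changes of -0.05 ± 0.13 at E12 and -0.03 ± 0.06 (SE) at E17.5. Gdf10, a relative of Bmp3, was at 1.31 FPKM in the mutant and 1.97 FPKM in the wild-type library of E12.0, and at 0.552 FPKM in the mutant and 1.08 FPKM in the wild-type library of E12.5. The E17.5 values were 3.08 and 3.56 FPKM in mutants, against 5.01 and 3.34 FPKM in wild-types. Mutant values were lower than their pair on both early days, and at E17.5 the ranges overlapped. Its log2 change was -0.32 ± 0.12 (SE) over all stages, with an unadjusted p of 0.0291 and an adjusted p of 0.749 in limma.

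Gdf1, a partner of nodal in left-right patterning, was at 10.6 FPKM in the mutant and 14.6 FPKM in the wild-type library of E12.0, and at 21.7 FPKM in the mutant and 23.7 FPKM in the wild-type library of E12.5. The mutant was lower on both days, with a log2 change of -0.27 ± 0.14 (SE) and an adjusted p of 0.976 in limma. At E17.5 the level was 0.447 and 0.0432 FPKM in mutants, against 0.0433 and 0.0433 FPKM in wild-types. In the mouse, Gdf1 shares a transcript with Cers1, which encodes a ceramide synthase. The E17.5 table had a row for Cers1, at 21.2 and 16.4 FPKM in mutants, against 23.0 and 22.7 FPKM in wild-types, and Cers1 at E12 was not analysed here. The levels of Gdf1 at the 2 ages cannot be told apart from the way the shared transcript was assigned. Bmp1, which matures procollagens and also cleaves chordin, was at 14.6 FPKM in the mutant and 13.0 FPKM in the wild-type library of E12.0, 20.6 FPKM in the mutant and 19.7 FPKM in the wild-type library of E12.5, and 15.0 and 15.4 FPKM in mutants, against 14.9 and 13.9 FPKM in wild-types at E17.5. With rows summed, it was one of 3 genes whose mutant libraries were above wild-type at every stage. Bmp1 listed 1 transcript at E12 and 2 at E17.5. On the larger E17.5 row alone the genotypes overlapped, at 13.0 and 14.1 FPKM in mutants, against 13.2 and 12.2 FPKM in wild-types.

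Among the antagonists, Nog had opposite orders of genotype at the 2 ages, and the difference between the ages did not pass the adjusted threshold. Nog was at 4.40 FPKM in the mutant and 2.94 FPKM in the wild-type library of E12.0, and at 5.29 FPKM in the mutant and 4.47 FPKM in the wild-type library of E12.5. At E17.5 it was at 4.16 and 3.69 FPKM in mutants, against 4.98 and 4.97 FPKM in wild-types. The mutant was the higher on both early days and both mutants were below both wild-types later. The log2 change of Nog was 0.33 ± 0.16 (SE) at E12 and -0.28 ± 0.08 at E17.5. The difference between the ages was -0.61 ± 0.14, with an unadjusted p of 0.00524 and an adjusted p of 0.749 in limma, and the E17.5 change had an unadjusted p of 0.0142 and an adjusted p of 0.689.

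Fst was at 16.4 FPKM in the mutant and 13.4 FPKM in the wild-type library of E12.0, and at 18.2 FPKM in the mutant and 12.9 FPKM in the wild-type library of E12.5. Its log2 change at E12, 0.37 ± 0.13 (SE), was the most positive of the pathway, with an unadjusted p of 0.0377 and an adjusted p of 0.976 in limma. At E17.5 Fst was nearly undetected, at 0.000450 and 0.198 FPKM in mutants, against 0.263 and 0.250 FPKM in wild-types, and it was not tested at that age alone. The E12 row of Fst listed 3 transcripts and the E17.5 row 1, and the part of this in the level at the 2 ages was not tested. Fst entered the comparison of the ages only through its E12 level, so no difference between the ages is read for it. Chrd showed no ordering like that of Nog. It lay between 2.01 and 3.12 FPKM over the E12 libraries, and at 2.64 and 2.53 FPKM in mutants, against 2.63 and 2.47 FPKM in wild-types at E17.5.

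**Figure D3:**
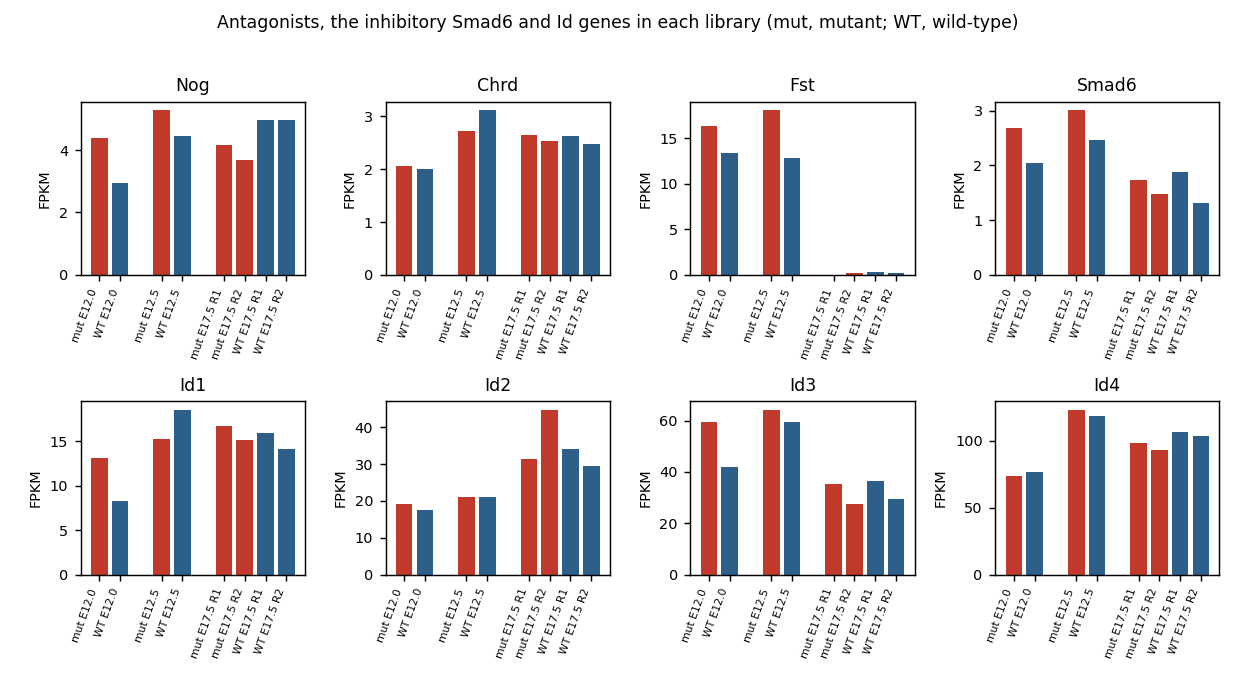
Bars give the FPKM of the antagonists Nog, Chrd and Fst, the inhibitory Smad6 and Id1 to Id4 in each of the 8 libraries by stage, mutant in red and wild-type in blue. Nog is higher in the mutant at E12.0 and E12.5 and lower at E17.5, Fst is higher in the mutant at both early stages and near 0 at E17.5, and Id4 is lower in both E17.5 mutants.

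Among type I receptors, Tgfbr1, the TGF-beta type I receptor, dominated at E12. It was at 59.3 FPKM in the mutant and 59.6 FPKM in the wild-type library of E12.0, at 73.4 FPKM in the mutant and 70.4 FPKM in the wild-type library of E12.5, and at 23.7 and 25.6 FPKM in mutants, against 24.4 and 24.3 FPKM in wild-types at E17.5. It made up between 54.5% and 56.7% of type I receptor FPKM in the E12 libraries and between 27.2% and 29.3% in those of E17.5. The activin type I receptor Acvr1b ran the other way, with 17.6% to 22.9% at E12 and 34.8% to 39.0% at E17.5, when it was the leading type I receptor at 32.8 and 30.4 FPKM in mutants, against 32.6 and 33.7 FPKM in wild-types. Tgfbr1 led in all 4 E12 libraries and Acvr1b in all 4 of E17.5, in either genotype. The share of Bmpr1a, the main BMP type I receptor here, moved less, between 16.3% and 23.9% over all 8 libraries.

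**Figure D4:**
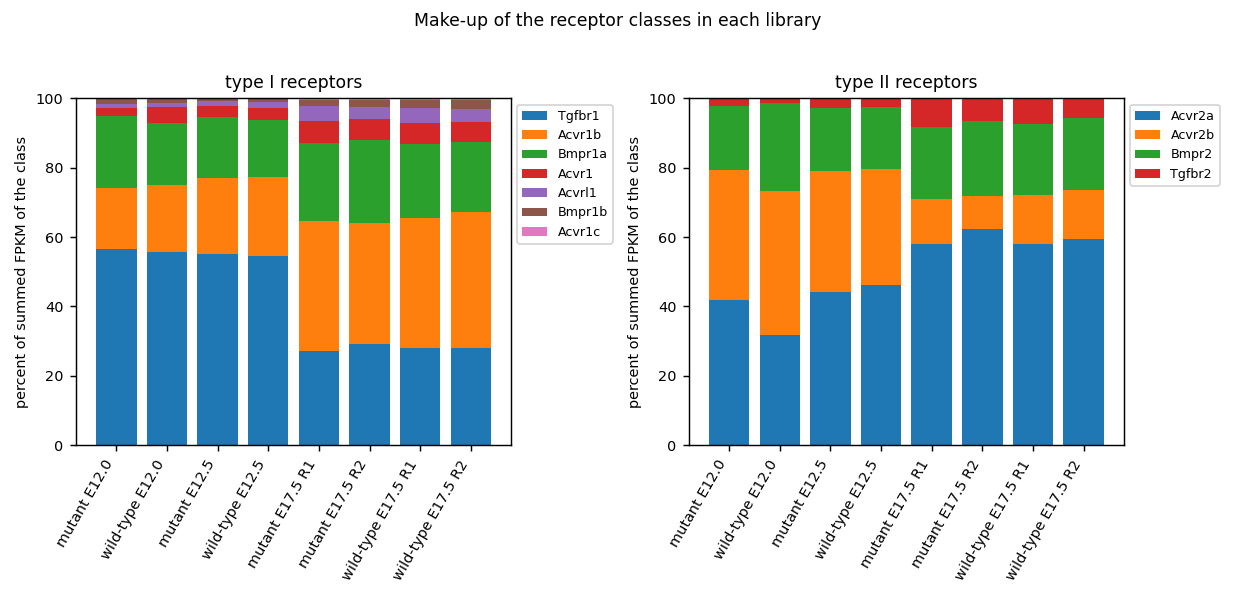
Share of each gene in the summed FPKM of type I receptors and of type II receptors, in percent, for every library. Tgfbr1 holds at least 54.5% of type I receptor FPKM at E12 and at most 29.3% at E17.5, and Acvr2b holds a smaller share of type II receptors at E17.5 than at E12. Stacked bars run from mutant to wild-type within each stage.

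Bmpr1a was at 21.5 FPKM in the mutant and 19.1 FPKM in the wild-type library of E12.0, at 23.4 FPKM in the mutant and 21.1 FPKM in the wild-type library of E12.5, and at 19.5 and 20.9 FPKM in mutants, against 18.7 and 17.6 FPKM in wild-types at E17.5. Mutants were higher within each of the 3 stages. The log2 change over all stages was 0.15 ± 0.05 (SE), with an unadjusted p of 0.0142 and an adjusted p of 0.749 in limma. Bmpr1b, the second BMP type I receptor, was at 1.66 and 1.76 FPKM in E17.5 mutants, against 2.16 and 2.29 FPKM in wild-types, a log2 change of -0.25 ± 0.09 with an unadjusted p of 0.0294 and an adjusted p of 0.689 in limma. Both E17.5 mutants were below both wild-types. At E12 its pairs went opposite ways, at 1.46 FPKM in the mutant and 1.27 FPKM in the wild-type library of E12.0, and at 0.764 FPKM in the mutant and 1.28 FPKM in the wild-type library of E12.5. Bmpr1b was spread over 5 transcript rows at E17.5, of which the leading one held between 40.9% and 59.7% of its FPKM.

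Acvr1, a further BMP type I receptor, was at 2.53 FPKM in the mutant and 4.94 FPKM in the wild-type library of E12.0, and at 4.32 FPKM in the mutant and 4.40 FPKM in the wild-type library of E12.5. Its E17.5 values were 5.57 and 5.42 FPKM in mutants, against 5.16 and 4.97 FPKM in wild-types. The low value was that of the E12.0 mutant. The log2 change was -0.38 ± 0.22 (SE) at E12 and 0.10 ± 0.07 at E17.5, with adjusted p of 0.976 and 0.694 in limma. Acvrl1, a receptor of endothelial cells, was between 1.33 and 2.33 FPKM at E12 and between 3.06 and 3.81 FPKM at E17.5, with overlapping genotypes at E17.5.

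Of the type II receptors, Acvr2a and Acvr2b bind activins, several BMPs and GDF11, Bmpr2 binds BMPs and Tgfbr2 binds TGF-betas. Acvr2a was at 24.8 FPKM in the mutant and 26.2 FPKM in the wild-type library of E12.0, at 33.6 FPKM in the mutant and 33.3 FPKM in the wild-type library of E12.5, and at 46.0 and 52.9 FPKM in mutants, against 46.0 and 46.6 FPKM in wild-types at E17.5. Acvr2b was at 22.2 FPKM in the mutant and 34.0 FPKM in the wild-type library of E12.0, at 26.6 FPKM in the mutant and 24.1 FPKM in the wild-type library of E12.5, and at 10.4 and 7.92 FPKM in mutants, against 11.3 and 11.0 FPKM in wild-types at E17.5. The paralogues were closer in level at E12 than at E17.5. Acvr2b held 33.4% to 41.5% of type II receptor FPKM at E12 and 9.33% to 14.3% at E17.5, while Acvr2a held 31.9% to 46.2% at E12 and 57.9% to 62.4% at E17.5. The E17.5 log2 change of Acvr2b was -0.27 ± 0.12 (SE), with both mutants below both wild-types and an adjusted p of 0.689 in limma. Mutant R2 was the low library, and the change was -0.09 without it and -0.45 without mutant R1.

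Bmpr2 was at 10.9 FPKM in the mutant and 20.8 FPKM in the wild-type library of E12.0, and at 14.0 FPKM in the mutant and 13.0 FPKM in the wild-type library of E12.5. At E17.5 it was at 16.6 and 18.6 FPKM in mutants, against 16.2 and 16.5 FPKM in wild-types. The order of genotypes at E12.0 was not that of E12.5. The E12 log2 change of -0.39 ± 0.25 (SE), adjusted p 0.976 in limma, was 0.10 without either E12.0 library. Tgfbr2 was between 1.07 and 2.03 FPKM at E12, and at 6.49 and 5.43 FPKM in mutants, against 5.81 and 4.35 FPKM in wild-types at E17.5. The co-receptor Tgfbr3 (betaglycan) was at 0.159 FPKM in the mutant and 0.314 FPKM in the wild-type library of E12.0, and at 0.138 FPKM in the mutant and 0.173 FPKM in the wild-type library of E12.5. It was at 2.61 and 2.26 FPKM in E17.5 mutants, against 2.24 and 1.58 FPKM in wild-types, a log2 change of 0.25 ± 0.13 (adjusted p 0.689 in limma) that was 0.08 without wild-type R2.

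Several of the larger early differences lay in the E12.0 pair of libraries. The wild-type E12.0 library had the lowest estimated depth, 3830000 fragments, an estimate that is not firm. Its part in these differences was not tested. Leaving out either E12.5 library bases the E12 change on the E12.0 pair and its spread on the E17.5 libraries. Then 7 pathway genes passed an adjusted p of 0.05 in limma: 7 of 31 without the mutant E12.5 library, where 21.1% of all genes passed, and 7 of 32 without the wild-type E12.5 library, where 22.6% did. The share among pathway genes, 22.6% and 21.9%, was near that of all genes. The 7 were Bmpr2 at -0.88, Acvr1 at -0.75, Tgfb1 at -0.69, Smad5 at -0.42, Smad1 at -0.28, Nog at 0.45 and Id1 at 0.61 on the log2 scale. Without either E12.0 library, 0 of 31 passed, where 0.491% of all genes did. For the difference between ages, 3 of 37 passed without the mutant E12.5 library (Acvr1, Bmpr2 and Nog; 9.65% of all genes) and 4 of 37 without the wild-type one (these and Smad5; 11.7% of all genes).

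Smad levels were close between genotypes at E17.5. Smad1, the most abundant receptor Smad, was at 22.7 FPKM in the mutant and 27.8 FPKM in the wild-type library of E12.0, at 32.3 FPKM in the mutant and 34.1 FPKM in the wild-type library of E12.5, and at 28.8 and 30.4 FPKM in mutants, against 29.6 and 29.4 FPKM in wild-types at E17.5. Its log2 change at E17.5 was 0.01, with a 95% interval of -0.13 to 0.14. Smad4, the common partner, was at 28.5 FPKM in the mutant and 31.5 FPKM in the wild-type library of E12.0, at 36.3 FPKM in the mutant and 36.7 FPKM in the wild-type library of E12.5, and at 21.6 and 24.0 FPKM in mutants, against 22.3 and 21.1 FPKM in wild-types at E17.5. Smad2 ran from 14.2 to 19.5 FPKM at E12 and from 22.8 to 23.5 FPKM at E17.5, and Smad5 from 19.7 to 26.6 FPKM at E12 and from 17.4 to 18.1 FPKM at E17.5. For these 4 Smads the E17.5 intervals of the change lay within 1.5-fold.

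Smad3, which carries TGF-beta and activin signals, was at 10.8 FPKM in the mutant and 10.4 FPKM in the wild-type library of E12.0, at 12.9 FPKM in the mutant and 9.94 FPKM in the wild-type library of E12.5, and at 5.71 and 5.85 FPKM in mutants, against 5.51 and 4.75 FPKM in wild-types at E17.5. Mutants were higher within each stage, as for Bmpr1a and, with its E17.5 rows summed, Bmp1. These were 3 of 37 genes with mutants higher at every stage, and 0 of 37 had mutants lower at every stage, where 5.74% of all tested genes had mutants higher and 5.89% lower. The log2 change of Smad3 over all stages was 0.17 ± 0.07 (SE), with an unadjusted p of 0.0440 and an adjusted p of 0.749 in limma. Smad9, the least abundant, was at most 0.199 FPKM in each E12 library and between 0.777 and 1.05 FPKM at E17.5.

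The inhibitory Smads were low throughout. Smad7 was at 3.72 FPKM in the mutant and 3.78 FPKM in the wild-type library of E12.0, at 4.45 FPKM in the mutant and 4.24 FPKM in the wild-type library of E12.5, and at 2.62 and 2.10 FPKM in mutants, against 2.71 and 2.33 FPKM in wild-types at E17.5. Smad6 was at 2.69 FPKM in the mutant and 2.03 FPKM in the wild-type library of E12.0, and at 3.01 FPKM in the mutant and 2.47 FPKM in the wild-type library of E12.5, a log2 change of 0.25 ± 0.16 (SE) with an adjusted p of 0.976 in limma. At E17.5 the libraries gave 1.73 and 1.47 FPKM in mutants, against 1.88 and 1.30 FPKM in wild-types. The genotypes overlapped at E17.5 for both genes.

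Id4, linked in the mouse to the timing of neural differentiation, was the most abundant gene of the pathway in every library. It was at 73.4 FPKM in the mutant and 76.2 FPKM in the wild-type library of E12.0, at 123 FPKM in the mutant and 118 FPKM in the wild-type library of E12.5, and at 98.0 and 92.7 FPKM in mutants, against 107 and 103 FPKM in wild-types at E17.5. Both E17.5 mutants were below both wild-types. The log2 change was -0.14 ± 0.05 (SE), with an unadjusted p of 0.0459 and an adjusted p of 0.689 in limma. Nog, Bmpr1b and Id4 were the 3 genes at an unadjusted p under 0.05 at E17.5, and all 3 were lower in mutants, where 3.52% of all genes had such a p and were lower.

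Id3 was at 59.3 FPKM in the mutant and 41.9 FPKM in the wild-type library of E12.0. In the E12.5 pair it was at 64.3 FPKM in the mutant and 59.3 FPKM in the wild-type library. Its E17.5 values were 35.1 and 27.4 FPKM in mutants, against 36.4 and 29.5 FPKM in wild-types. It was higher in the mutant on both early days, with a log2 change of 0.30 ± 0.15 (SE) and an adjusted p of 0.976 in limma, and overlapped later. Id1 was at 13.1 FPKM in the mutant and 8.27 FPKM in the wild-type library of E12.0, and at 15.2 FPKM in the mutant and 18.6 FPKM in the wild-type library of E12.5, so the 2 days disagreed. Its E17.5 values were 16.8 and 15.1 FPKM in mutants, against 15.9 and 14.1 FPKM in wild-types. Id2 was between 17.6 and 21.1 FPKM at E12, and at 31.4 and 44.8 FPKM in mutants, against 34.2 and 29.4 FPKM in wild-types at E17.5, where mutant R2 was the high library. The summed level of the 4 Id genes was 181 and 180 FPKM in E17.5 mutants, against 193 and 176 FPKM in wild-types.

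**Figure D5:**
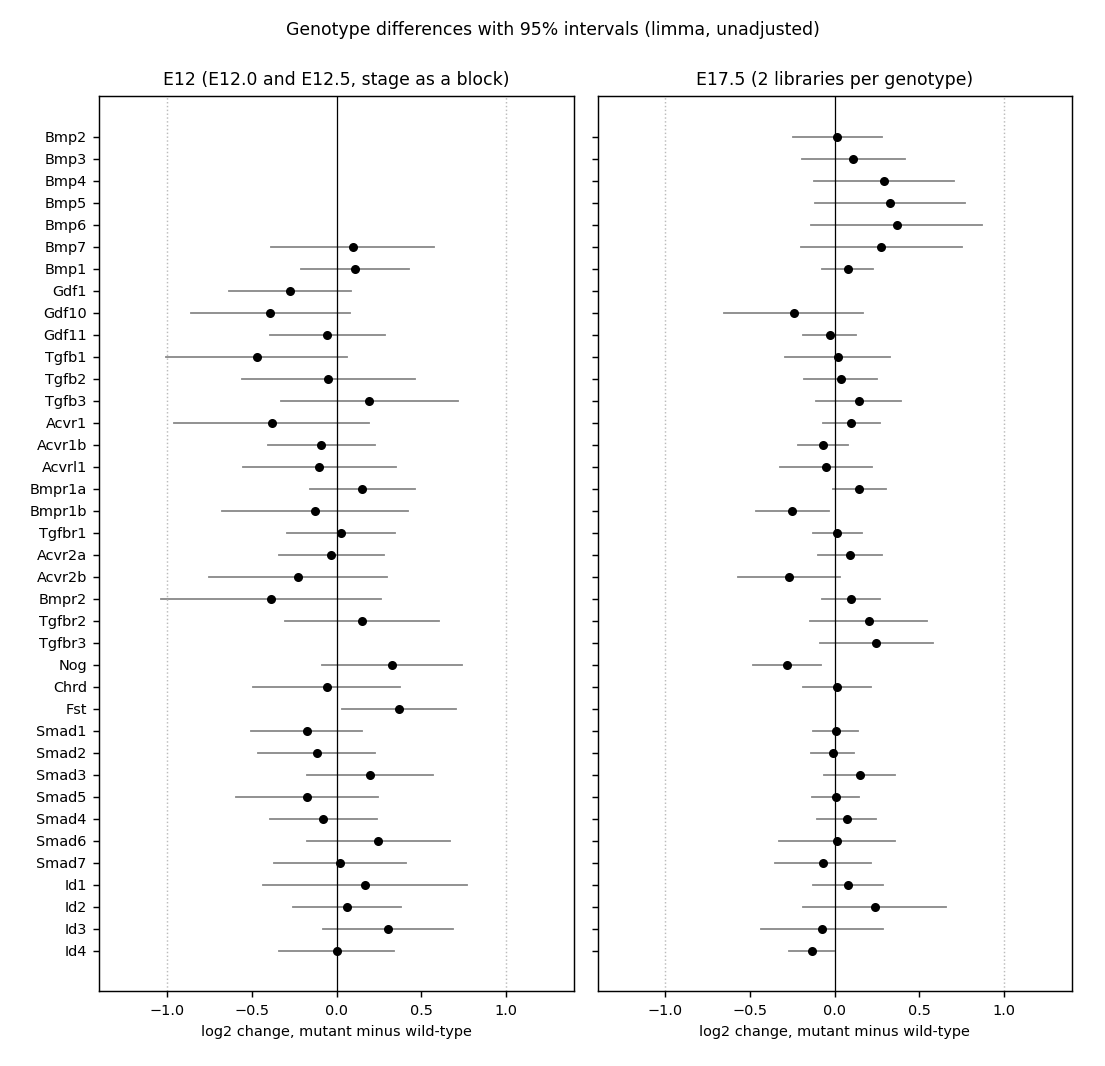
Points give the log2 change, mutant minus wild-type, of each tested pathway gene at E12 (left) and E17.5 (right) from limma on log2(FPKM + 1), with lines for the 95% interval and dotted lines at 2-fold. All 36 intervals at E17.5 and 30 of 32 at E12 lie within 2-fold, and genes under the filter have no point.

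The log2 change was above 0 in 25 of 36 genes at E17.5 (51% of all genes) and in 15 of 32 at E12 (52.2% of all genes), with medians of 0.03 and -0.04, against 0.003 and 0.009 over all tested genes. Wild-type R2 was the lowest library for 19 of the 36. The libraries of the 2 genotypes did not overlap at E17.5 for 8 genes with mutants higher (20.9% of all genes) and 4 with mutants lower (22.2% of all genes). At E12, 9 of 32 genes were higher in the mutant on both days (25.9% of all genes) and 8 were lower on both (21.8% of all genes). The difference between the effects at the 2 ages was above 0 in 23 of 37 genes (50.4% of all genes) and in 28 of 37 when small RNA genes were left out and libraries rescaled, where 62.65% of all genes were above 0.

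Levels at the 2 ages were set side by side. All 4 E17.5 libraries were above all 4 E12 libraries for 21 of 51 genes (41.2%, against 34.7% of all 22725 symbols) and below them for 11 (21.6%, against 10.6%). Among ligands 10 of 23 were above and 2 below, and among receptors and co-receptors 8 of 12 were above and 2 below. Among Smads 2 of 8 were above and 5 below. The summed level of BMP ligands was between 11.9 and 19.3 FPKM at E17.5 and between 2.72 and 4.23 FPKM at E12, and that of TGF-beta ligands between 8.61 and 10.2 FPKM and between 2.80 and 4.06 FPKM. In 9 of 14 marker lists, among them meninges, endothelium, pituitary, microglia, astrocytes and neurons, all E17.5 sums were likewise above all E12 sums, and their part in the ligand levels was not tested.

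Other genes of the pathway, taken from a list of 78 that the rule did not include, were examined beside them. At E17.5, 0 of 53 tested passed an adjusted p of 0.05 in limma, 2 had an unadjusted p under 0.05 (5.7% of all genes), and 33 were above 0 (51% of all genes) and 20 below. Those 2 were the BMP co-receptors Rgma, at 25.3 and 23.5 FPKM in mutants, against 27.5 and 28.6 FPKM in wild-types, and Rgmb, at 35.3 and 34.0 FPKM in mutants, against 38.3 and 38.9 FPKM in wild-types. Together with Col1a1, also a meningeal marker, at a log2 change of -0.19, they had the most negative changes. Zeb2, which encodes a Smad-interacting repressor, was at 10.5 and 20.4 FPKM in mutants, against 11.1 and 10.5 FPKM in wild-types, so mutant R2 alone was high, and the same held for the BMP antagonist gene Sostdc1, at 1.30 and 3.31 FPKM in mutants, against 1.53 and 1.55 FPKM in wild-types. The summed level of 10 telencephalic markers was 51.7 and 109 FPKM in mutants, against 49.1 and 48.1 FPKM in wild-types. That of 10 roof plate and choroid plexus markers was 24.8 and 369 FPKM in mutants, against 74.0 and 159 FPKM in wild-types. Both sums were highest in mutant R2. The second sum varied mainly through Ttr, at 4.76 and 333 FPKM in mutants, against 50.0 and 133 FPKM in wild-types. The other 9 markers of that list summed to 20.1 and 35.2 FPKM in mutants, against 24.1 and 26.0 FPKM in wild-types. Lmx1a, the largest of these, was at 9.70 and 10.3 FPKM in mutants, against 9.24 and 11.2 FPKM in wild-types. The rest were highest in mutant R2 among the E17.5 libraries. Folr1, for example, was at 0.342 and 3.65 FPKM in mutants, against 1.45 and 1.54 FPKM in wild-types. The part of either list in the values of Zeb2 and Sostdc1 was not tested. Ctgf, a TGF-beta target, was at 4.93 and 3.29 FPKM in mutants, against 3.99 and 2.58 FPKM in wild-types, with overlapping genotypes. Its log2 change of 0.26 was 0.02 without wild-type R2 and also 0.02 without mutant R1.

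At E12, 0 of 45 tested genes of that list passed in limma, 1 had an unadjusted p under 0.05 (1.41% of all genes), and 17 were above 0 (52.2% of all genes) and 28 below. That gene was Thbs1, whose thrombospondin product activates latent TGF-beta, at 7.36 FPKM in the mutant and 10.8 FPKM in the wild-type library of E12.0, and at 4.65 FPKM in the mutant and 5.82 FPKM in the wild-type library of E12.5. Tob1, which restrains Smad signalling, and Eng, the endothelial co-receptor endoglin, followed at log2 changes of -0.38 and -0.33, with low values in the E12.0 mutant only. The largest positive changes were those of the homeobox target Msx1 at 0.25, the kinase adaptor Tab1 at 0.21 and the decoy receptor Bambi at 0.21. Msx1 was at 1.61 FPKM in the mutant and 1.80 FPKM in the wild-type library of E12.0, and at 4.43 FPKM in the mutant and 2.57 FPKM in the wild-type library of E12.5, so the 2 days disagreed.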

How the data were processed

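Total RNA of mouse hypothalamus (8 libraries, 4 Foxd1-mutant and 4 wild-type) was measured as FPKM, which the authors deposited as 1 table per library. Reads were aligned with TopHat and quantified with Cufflinks on mouse build mm9, per the submitters' processing notes, with versions not given in the sources used here. The E12 files held 23737 rows and 23440 symbols and the E17.5 files 32952 rows and 24002 symbols. Rows of a symbol were summed. The E12 files had 8 rows without a gene name, with 0.0285% to 0.0360% of FPKM, which were left out.

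Values were taken as log2(FPKM + 1), and genes at a mean of 1 FPKM or more were tested with limma 3.58.1 in R 4.3.3 (two-sided, variance trend, Benjamini-Hochberg over all tested genes, threshold 0.05), which was also tested on simulated data. E17.5 used 4 libraries. E12 used 4, with stage as a block. All 8 libraries, again blocked by stage, entered the overall comparison and the test of the difference between ages. At E12 and over all stages, an order of genotypes was judged within each stage. Single days had no test and a 2-fold limit.

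Same-numbered E17.5 libraries were not treated as pairs, since the correlation of their deviations was 0.028 over 13235 genes. The genes and lists were chosen with earlier results of these data known. Named by rule were genes past the adjusted threshold, those at an unadjusted p under 0.05 without overlap, the 5 largest changes in each direction at each age, the most abundant gene of each class, genes under 1 FPKM throughout, and the 3 largest changes of the further pathway list in each direction. Gdf10 over all stages overlapped and was named by its change. Smaller values were summarised by range. Alternatives changed the pseudocount, filter, scaling, variance model, row handling, blocks and libraries. Depth, estimated from low FPKM values of long single-transcript genes, was 40250000 and 30500000 fragments in mutant and 34380000 and 43060000 fragments in wild-type E17.5 libraries, where 79.7% to 81.8% of those values lay within 0.1 of a whole fragment (20% by chance). At E12 the estimates were 16500000 and 12270000 fragments in the mutant libraries of E12.0 and E12.5. In the wild-type libraries they were 3830000 and 57470000 fragments. Only 31.9% to 41.1% of values lay near a whole fragment at E12, so depth there is not firmly known.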

Additional observations from a re-analysis of the deposited data

Results flagged for a closer look

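For 4 genes the mutant library lay on one side of its wild-type at E12.0 and E12.5 and both mutants on the other side at E17.5. The share of all genes with such a reversed order was not computed, so the count is not read as particular to the pathway. At E12, 25.9% of all genes were higher in the mutant on both days and 21.8% lower. At E17.5, 20.9% had both mutants higher and 22.2% both lower. The difference between the E17.5 and E12 changes was tested for each with limma, on the log2(FPKM + 1) scale, and had an adjusted p of 0.749 in all 4. Only Nog and Acvr1 were past the 1 FPKM filter at both ages. It was -0.6087 for Nog, which was higher in mutants at E12.0 and E12.5 and lower in both at E17.5. The value of -0.5671 for Fst joins its E12 change of 0.37 with E17.5 values of at most 0.263 FPKM, under the filter. No opposite order is read from it. For Acvr1 it was 0.4825, with mutants lower early and higher late, and most of the early difference lay at E12.0. The value of 0.358 for Tgfbr3 joins its E17.5 change of 0.25 with early values of at most 0.314 FPKM, under the filter. No opposite order is read from it either. Without the mutant E12.5 library this difference was past the adjusted threshold in limma for Nog (-0.7339, adjusted p 0.0413) and Acvr1 (0.8474, adjusted p 0.0255), where 9.65% of all genes were.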

How the results depend on the processing

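The number of pathway genes past the adjusted threshold stayed at 0 at E17.5 and over all stages under every alternative run, with 0 to 0 when 1 library was left out. At E12 it was 0 to 7 when 1 library was left out and 7 without either E12.5 library, and for the difference between ages 0 to 4. With a pseudocount of 0.1 FPKM 1 pathway gene, Tgfb1, passed 2-fold at E12.0, and the share of all genes at that setting was not computed. Counts over all genes moved more. At E17.5 the count of 1 gene was 0 with no filter, 0 with a filter at 5 FPKM, 1 to 44 when 1 library was left out, and 16 with a replicate block, which called 0 pathway genes. At E12 the count of 4 genes was 1 with a pseudocount of 5, with no filter, with quantile normalization, with median-of-ratios scaling and with no trend. It was 78 with no stage block, 55 to 2595 when 1 library was left out, 58 without either E12.0 library and 2692 without either E12.5 library. For the difference the count of 4 was 1 with pseudocounts of 0.1 and 5 and with quantile normalization, 2 with robust empirical Bayes, 0 with no filter, a filter at 5 FPKM and median-of-ratios scaling, and 0 to 1465 when 1 library was left out. Over all stages it stayed 0. The log2 change of Bmp7 at E17.5 was between -0.02303 (without wild-type R2) and 0.5757 (without wild-type R1), and that of Bmpr2 at E12 between -0.8768 without an E12.5 library and 0.1021 without the mutant, the wild-type or either E12.0 library. The cause of these changes was not tested, except that leaving out an E12 library bases the change on 1 pair. No scaling moved the median of all genes by more than 0.1. With 2 libraries or fewer per genotype and stage, smaller changes of low genes were not detectable.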
